A study of Arabidopsis thaliana with 7 samples.

Results

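The genes described here are 6 protein genes of the mitochondrial genome of Arabidopsis thaliana: nad4, nad4L and nad7, which encode subunits of respiratory complex I, ccb203 and ccb382, which encode proteins of cytochrome c maturation, and matR, which encodes a splicing maturase. They are defined by gene symbol, and the choice of these genes was made with earlier results of these data known. Each had 1 probe set, so 6 of the 22810 probe sets of the array are described, and the 6 are all among the 13513 that name a single gene. In RefSeq's current naming of the mitochondrial genome (assembly TAIR10.1) ccb203 is ccmFN2 and ccb382 is ccmFN1. The locus tags there are DA397_mgp23 for nad4, DA397_mgp04 for nad4L, DA397_mgp19 for nad7, DA397_mgp12 for ccb203, DA397_mgp10 for ccb382 and DA397_mgp20 for matR.

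The RNA came from mature leaves of Col-0 plants aged 3.5 weeks and was measured on 7 Affymetrix ATH1 arrays, on which a transcript is read by a group of short probes called a probe set. There was 1 array for each of 7 conditions: untreated leaves, leaves treated with a spray of 0.02% Silwet, a surfactant, for 6 h or 12 h, and leaves treated for 3, 6, 12 or 24 h with a spray of 0.5 mM salicylic acid (SA), the phenolic defence hormone, dissolved in that surfactant mix. The leaves of several plants were pooled for each sample, per the labels, and no condition had a second array, so the spread between plants was not measured. All values are log2 RMA values, and differences are in log2 units, where 1 is a 2-fold difference.

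Complex I takes electrons from NADH and passes them to ubiquinone while moving protons across the inner mitochondrial membrane. In plants, as in most eukaryotes, its hydrophobic core subunits are made in the mitochondrion and most other subunits are imported. The c-type cytochromes receive their haem in plant mitochondria through the Ccm pathway, several members of which are mitochondrion-encoded. Plant mitochondrial transcripts carry introns that must be spliced out, and a poly(A) tail on them marks RNA for degradation and not for translation. Labelling of eukaryotic RNA for this kind of array usually starts from poly(A), and the labels name the labelling manual without naming the primer. A large copy of the mitochondrial genome also lies in the nuclear chromosome 2 of Col-0, so a probe set may not tell the mitochondrial transcript from one of that copy. The matR probe set, 244926_s_at, has the suffix that the array maker gives to sets whose probes match more than 1 transcript.

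Whether the arrays fit the labelled tissue could be read from few markers. RCA, the Rubisco activase gene of photosynthetic cells, was the 1 of 8 mesophyll markers with a named probe set and lay between 13.70 and 14.22 on all arrays. FAMA (symbol FMA in RefSeq), a guard-cell gene, was the 1 of 5 guard-cell markers measured and lay between 6.67 and 8.30, with a difference between SA and control arrays of -0.72. None of the 4 phloem and 4 root markers had a named probe set. The array maker's control for 25S ribosomal RNA was highest at 12 h, with 13.43 for Silwet and 12.44 for SA, and was from 8.20 to 10.30 elsewhere. The excess of the 3′ over the 5′ control of GAPDH, a measure of RNA integrity, ran from 0.57 (SA 3 h) to 1.78 (Silwet 6 h).

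Among the complex I genes, nad4L was the one with the largest spread over arrays. Its probe set, 244902_at, read 6.57 in untreated leaves, 6.06 (6 h) and 6.26 (12 h) with Silwet, and 7.01 (3 h), 7.03 (6 h), 7.48 (12 h) and 6.19 (24 h) with SA. The SA arrays from 3 h to 12 h thus all lay above the 3 control arrays, while the SA array at 24 h lay below the untreated array and between the Silwet arrays, so the arms overlapped. At matched times SA was 0.97 higher than Silwet at 6 h and 1.23 higher at 12 h. Silwet itself lay 0.51 below untreated leaves at 6 h and 0.31 below at 12 h, on single arrays. The untreated array is listed at 0 h, so spray, time and harvest cannot be told apart in these values. How much of the SA to Silwet distance was a low level in Silwet was not tested.

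The gene nad4, which encodes another proton-pumping membrane subunit of the same complex, went the other way by a small amount. Its probe set, 244929_at, read 9.46 in untreated leaves, 9.32 (6 h) and 9.48 (12 h) with Silwet, and 9.22 (3 h), 9.06 (6 h), 9.28 (12 h) and 9.26 (24 h) with SA. Every SA array lay below every control array, with a gap between the lowest control (9.32) and the highest SA array (9.28). SA was -0.26 against Silwet at 6 h and -0.19 at 12 h, and -0.24 and -0.20 against untreated leaves at 3 h and 24 h.

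The nad7 gene encodes a core subunit of the arm of complex I that carries electrons, and its transcript is assembled from several exons. Its probe set, 244925_at, read 5.37 in untreated leaves, 5.22 (6 h) and 5.21 (12 h) with Silwet, and 5.57 (3 h), 5.16 (6 h), 5.17 (12 h) and 5.21 (24 h) with SA. Apart from the SA array at 3 h, which was the highest, the arrays lay within the range of 5.16 to 5.37, and the arms overlapped. The level of this probe set was under 7.04, the median over all of them, where RMA values tend to understate differences. The same holds for nad4L, ccb203 and matR.

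The cytochrome c maturation genes ccb203 and ccb382 encode separate parts of what is a single protein, CcmFN, in many other plants, a component of the complex that attaches haem to the cytochrome. The ccb203 probe set, 244919_at, was the most even of the 6, with 6.16 in untreated leaves, 6.02 (6 h) and 6.08 (12 h) with Silwet, and 6.15 (3 h), 6.03 (6 h), 6.13 (12 h) and 6.13 (24 h) with SA. Its whole range was 0.13, and its SD over the 7 arrays exceeded that of only 5.9% of the probe sets that name a gene. For ccb382 (244912_at) the values were 9.14 in untreated leaves, 8.69 (6 h) and 9.12 (12 h) with Silwet, and 9.04 (3 h), 9.23 (6 h), 9.10 (12 h) and 9.14 (24 h) with SA. Here 6 of the 7 arrays lay between 9.04 and 9.23 and Silwet at 6 h stood apart below them. The difference between SA and Silwet was accordingly 0.54 at 6 h and -0.02 at 12 h.

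The maturase gene matR lies within an intron of nad1 and encodes a protein that takes part in intron splicing. It read 6.35 in untreated leaves, 5.93 (6 h) and 6.02 (12 h) with Silwet, and 6.86 (3 h), 6.44 (6 h), 6.72 (12 h) and 6.47 (24 h) with SA. Every SA array lay above every control array, although only by 0.09 between untreated leaves and SA at 6 h. SA exceeded Silwet by 0.50 at 6 h and 0.70 at 12 h. Against untreated leaves SA was higher by 0.51 at 3 h and 0.12 at 24 h, and Silwet was lower by 0.42 at 6 h and 0.33 at 12 h.

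**Figure D1:**
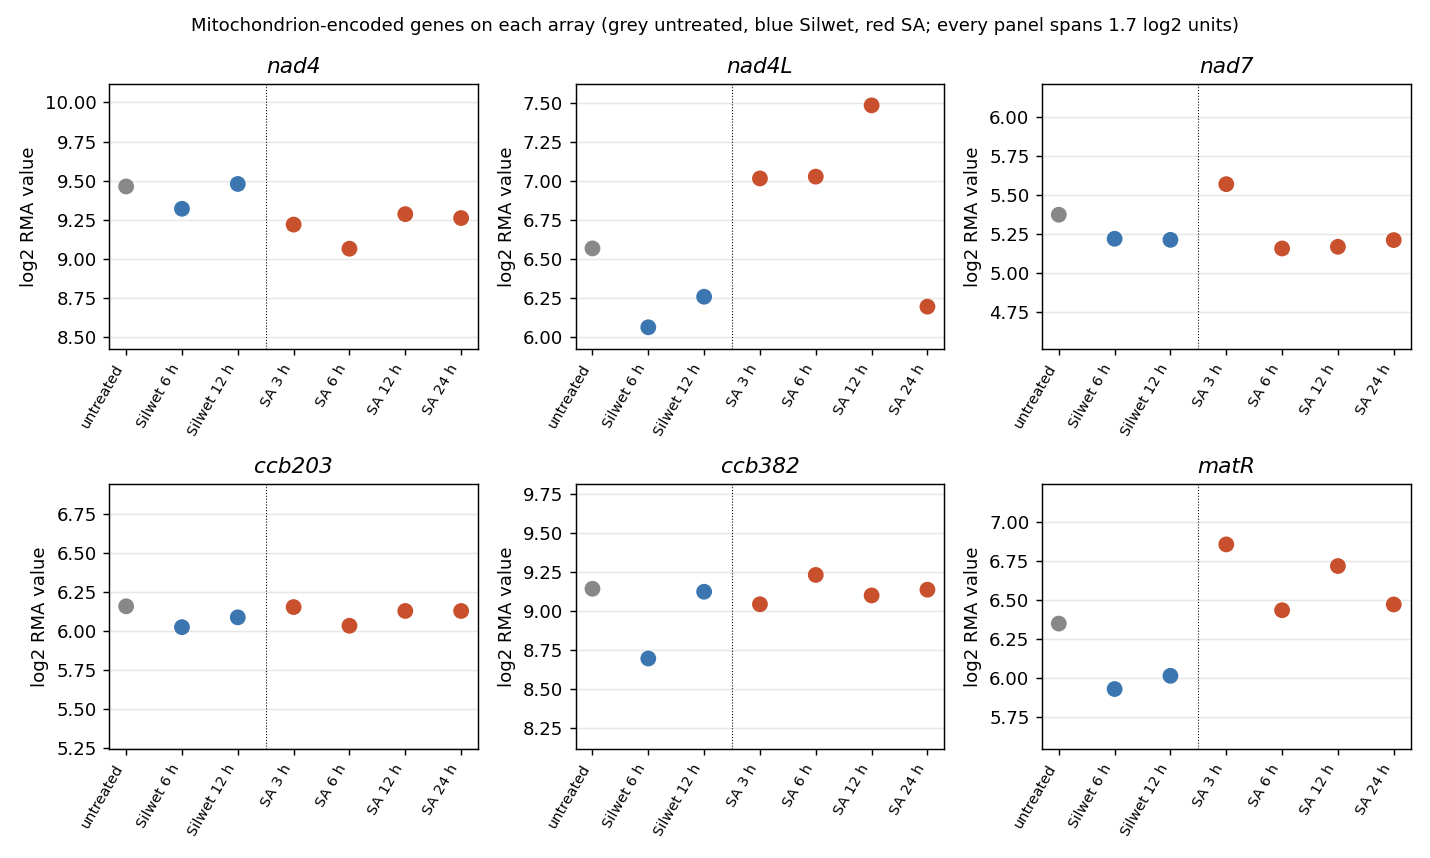
Log2 RMA value (y axis) of each of the 6 genes on each of the 7 arrays (x axis), 1 point per array, with untreated in grey, Silwet in blue and SA in red. Every panel spans the same number of log2 units: nad4L and matR lie higher on the SA arrays from 3 h to 12 h, nad4 lies slightly lower on all SA arrays, and ccb203 stays within 0.13.

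Whether SA and control leaves differed at whatever time they were sampled was tested by setting the 4 SA arrays against the 3 control arrays with limma, fitted over all 13513 probe sets. The error in that fit is the spread between times and sprays within an arm. None of the 6 genes passed the adjusted threshold of 0.05, where 1.33% of all probe sets did, 1.03% higher and 0.303% lower. The matR mean was 6.10 ± 0.22 (SD over arrays, n = 3) in control and 6.62 ± 0.20 (n = 4) in SA leaves, a difference of 0.52 (SE 0.16, 95% interval 0.15 to 0.90, limma adjusted p = 0.135). For nad4L the means were 6.29 ± 0.25 and 6.93 ± 0.54, a difference of 0.63 (SE 0.30, interval -0.06 to 1.33, adjusted p = 0.282). For nad4 they were 9.42 ± 0.09 and 9.21 ± 0.10, a difference of -0.21 (SE 0.17, interval -0.61 to 0.18, adjusted p = 0.525). The SE of nad4 is wider than its own spread over arrays because limma draws each variance towards that of probe sets of like level.

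The other 3 genes had differences close to 0 in that comparison, with intervals that still admit modest shifts. The difference was 0.14 for ccb382 (interval -0.30 to 0.59), 0.02 for ccb203 (interval -0.19 to 0.23) and 0.01 for nad7 (interval -0.27 to 0.28). Their adjusted p-values in limma were 0.73, 0.923 and 0.978. At an unadjusted p under 0.05 only matR of the 6 passed, where 20.2% of all probe sets did. The arms did not overlap for matR, with SA above, as for 8.67% of all probe sets, and for nad4, with SA below, as for 9.41%. With 6 genes, 1 in each direction is no result about the group.

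The comparison at matched times used the Silwet and SA arrays at 6 h and 12 h, with treatment and time as additive terms in limma and 1 residual degree of freedom per probe set, so that it leans on the variance prior. None of the 6 genes passed here either, where 1.76% of all probe sets did, 1.15% higher and 0.614% lower. The largest difference was that of nad4L, 1.10 (SE 0.17, 95% interval 0.61 to 1.58, 2.14-fold, limma adjusted p = 0.0657). It did pass when the arrays were centred on their medians, with 1.12 (adjusted p = 0.0452), or on nuclear genes for mitochondrial proteins, with 0.90 (adjusted p = 0.0376). With these centrings 859 and 2518 of all 13513 probe sets passed, against 238 in the main fit, so the threshold was easier to pass for all genes. Over all the settings run the adjusted p of this difference ranged from 0.0376 to 0.0846. The difference of matR was 0.60 (SE 0.15, interval 0.18 to 1.03, 1.52-fold, adjusted p = 0.114).

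For the 4 remaining genes the matched differences were -0.22 for nad4 (SE 0.21), 0.26 for ccb382 (SE 0.26), 0.03 for ccb203 (SE 0.13) and -0.05 for nad7 (SE 0.10), with limma adjusted p between 0.558 (nad4) and 0.924 (ccb203). At an unadjusted p under 0.05 nad4L and matR passed, 2 of 6, where 26.8% of all probe sets did. SA lay above Silwet at both times for nad4L, matR and ccb203, 3 of 6, where 27.6% of all probe sets did. It lay below at both for nad4 and nad7, where 42.3% did. At least 1.5-fold above Silwet at both times was nad4L alone, where 8.83% of all probe sets were.

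The RNA integrity controls differed within these pairs. The 3′ excess of GAPDH at 6 h was 1.78 for Silwet but 0.62 for SA, whereas at 12 h it was 1.41 and 1.49, and a second GAPDH control gave 0.34 and 0.05 at 6 h and 0.10 and 0.38 at 12 h. For actin the excess in the 6 h pair was 2.39 (Silwet) and 2.48 (SA), and in the 12 h pair 1.84 and 2.44. A second actin control gave 1.63 (Silwet) and 1.17 (SA) at 6 h, and 1.32 and 1.66 at 12 h. The part of RNA integrity in the differences at either time was not tested. In leaf samples such as these, fewer mitochondria or cells of a type and less RNA in each cannot be told apart.

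**Figure D2:**
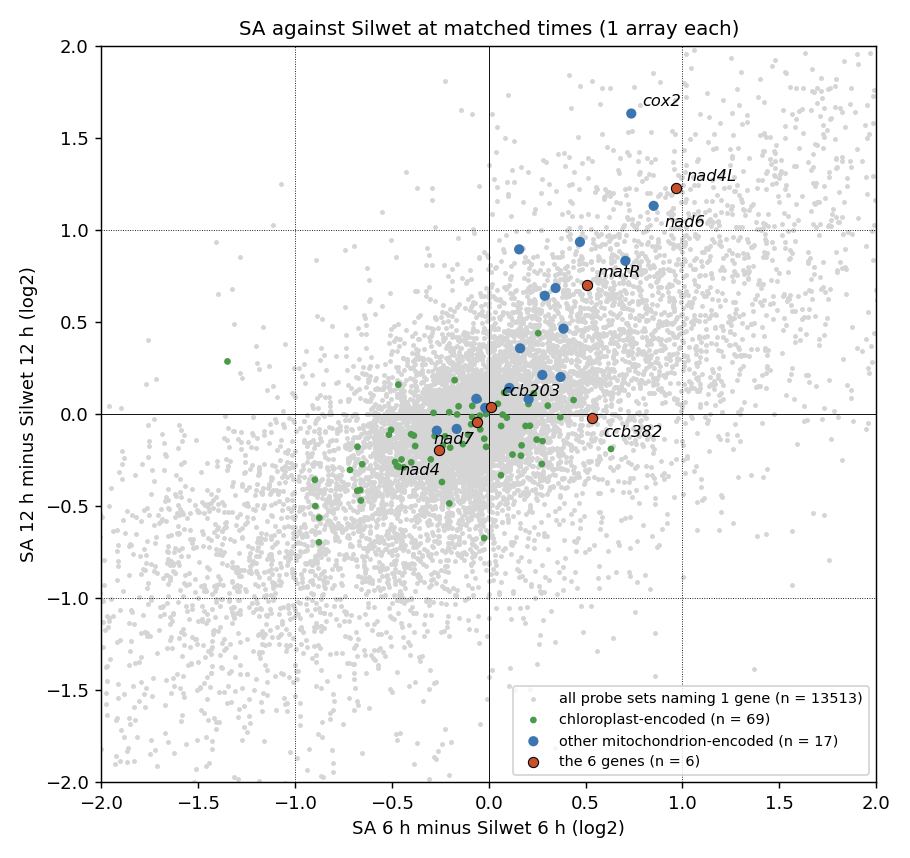
Difference between SA and Silwet at 6 h (x axis) and at 12 h (y axis) in log2 units, 1 point per probe set, with the 6 genes in red, other mitochondrion-encoded genes in blue, chloroplast-encoded genes in green and all 13513 probe sets in grey (750 lie outside the plotted range). Dotted lines mark a 2-fold difference: nad4L lies at 0.97 and 1.23, matR at 0.50 and 0.70, and nad7, ccb203 and nad4 lie near the origin.

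Between single arrays, 2-fold differences were rare among the 6 genes. Over the 8 pairs of arrays compared, 1 of 48 values reached 2-fold, that of nad4L between SA and Silwet at 12 h, where 12% of all probe sets differed at least 2-fold and 5.98% were higher. For SA against Silwet at 6 h the share of all probe sets past 2-fold was 17.3%, and nad4L at 0.97 was just short of it. None of the 6 reached it in the other 6 pairs, where the share was 13.9% and 7.19% for SA at 3 h and 24 h against untreated leaves, 8.45% and 9.75% for Silwet at 6 h and 12 h against untreated leaves, and 6.85% and 5.45% for 12 h against 6 h within Silwet and within SA. Silwet at 6 h lay below untreated leaves for all 6 genes, from -0.51 (nad4L) to -0.13 (ccb203), with a median of -0.29 where the median of all probe sets was 0.02. Of all 13513 probe sets 7105 were higher with Silwet at 6 h than in untreated leaves, and of 17 other mitochondrion-encoded ones 4 were. At 12 h 5 of the 6 were below untreated leaves with Silwet, with a median of -0.12. There the median of all probe sets was 0.01 and 6933 of them were higher, as were 7 of the 17. These pairs share the untreated array.

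From 6 h to 12 h no gene passed in limma, among the 6 or among all 13513 probe sets, of which 1361 (10.1%) had an unadjusted p under 0.05 and none of them was one of the 6. All 6 were higher on average at 12 h, where 51.2% of all probe sets were. The differences ran from 0.002 for nad7 to 0.33 for nad4L (SE 0.17, limma adjusted p = 0.593), with matR at 0.18 and nad4 at 0.19. In SA leaves nad4L was 0.46 higher at 12 h than at 6 h, and in Silwet leaves 0.20. The 25S ribosomal RNA control was also higher on both 12 h arrays (13.43 and 12.44) than on both 6 h arrays (8.20 and 9.41), and its part in these differences was not tested.

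The time course with SA differed in form between genes. For nad4L the value stayed above all control arrays until 12 h and at 24 h was -0.37 against untreated leaves. For matR the highest value was the earliest, 6.86 at 3 h, and at 24 h it was still 0.12 above untreated leaves. For nad7 only the 3 h array stood out, at 0.20 above untreated leaves. That array also had the lowest 3′ excess of GAPDH (0.57) and actin (1.72), but the ubiquitin excess was 1.21 there and lowest at SA 24 h (1.05). Over the 7 arrays nad7 ran against the actin excess (Pearson's r = -0.79, Spearman's rho = -0.89). That was the strongest correlation of any of the 6 genes with an array control. With the other GAPDH, actin and ubiquitin controls nad7 had r from -0.74 to -0.43 and rho from -0.54 to -0.21. The part of RNA integrity in the nad7 value was not tested. With 1 array a time these courses have no replicate check.

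The remaining mitochondrion-encoded genes with a named probe set were nad1, nad2, nad5, nad6 and nad9 of complex I, cox1 and cox2 of cytochrome oxidase, ccb206 and ccb452 of cytochrome c maturation and orfX, a gene for a transport protein of the TatC family (mttB in RefSeq). Together these 10 genes had 17 probe sets, and a further 12 probe sets that list a mitochondrial gene beside another gene are not used here. None of the 17 passed in either comparison of SA in limma, and 3 and 5 of them had an unadjusted p under 0.05. In the comparison of arms 14 of 17 were higher with SA and the median was 0.23, beside 5 of 6 and 0.08 for the genes described here, and 42.2% and -0.03 for all 13513 probe sets. At matched times 15 of 17 were higher and the median was 0.29, beside 4 of 6 and 0.14, and 40.3% and -0.06 for all probe sets.

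The largest single-array differences among these 17 were those of nad6 and cox2. The nad6 gene, of the membrane arm of complex I, read 6.08 in untreated leaves, 5.68 (6 h) and 5.84 (12 h) with Silwet, and 7.86 (3 h), 6.53 (6 h), 6.97 (12 h) and 5.90 (24 h) with SA. As with nad4L, the SA arrays from 3 h to 12 h lay above all control arrays and the 24 h array did not. Its difference at matched times was 0.99 (SE 0.16, limma adjusted p = 0.0663), and it passed with the arrays centred on their medians (1.01, adjusted p = 0.0444) or on nuclear genes for mitochondrial proteins (0.80, adjusted p = 0.0378). With these centrings 859 and 2518 of all probe sets passed, against 238. The cox2 gene, a core subunit of cytochrome oxidase, read 6.88 in untreated leaves, 6.69 (6 h) and 6.66 (12 h) with Silwet, and 7.83 (3 h), 7.42 (6 h), 8.29 (12 h) and 7.27 (24 h) with SA. Each SA array exceeded each control array, with a difference between arms of 0.96 (SE 0.26, limma adjusted p = 0.103) and at matched times of 1.18 (SE 0.29, adjusted p = 0.114).

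Of all 15 mitochondrion-encoded complex I probe sets, nad4, nad4L and nad7 included, 12 were higher with SA at matched times, where 40.3% of all probe sets were. These were nad4L (1.10), nad6 (0.99), nad9 (0.29), both probe sets of nad5 (0.51 and 0.12) and all 7 of nad1 (0.01 to 0.70). Probe sets of the same gene are not independent, so the tally is of probe sets and not of genes. The 3 below 0 were nad4 (-0.22), nad7 (-0.05) and nad2 (-0.12), each with a 95% interval that includes 0. Most of the higher ones also had an interval that includes 0. The exceptions were nad4L, nad6, the nad5 probe set 257337_at and the nad1 probe set 257323_at. Between arms 13 of the 15 were higher, and the interval of nad2 lay below 0 (-0.17, interval -0.33 to -0.01, limma adjusted p = 0.211). Within cytochrome c maturation, ccb206 (CcmB) and ccb452 (CcmFC), named for their role after their values were seen, had matched differences of 0.24 (SE 0.15) and 0.77 (SE 0.21), beside 0.26 for ccb382 and 0.03 for ccb203. The limma adjusted p was 0.379 for ccb206 and 0.13 for ccb452.

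**Figure D3:**
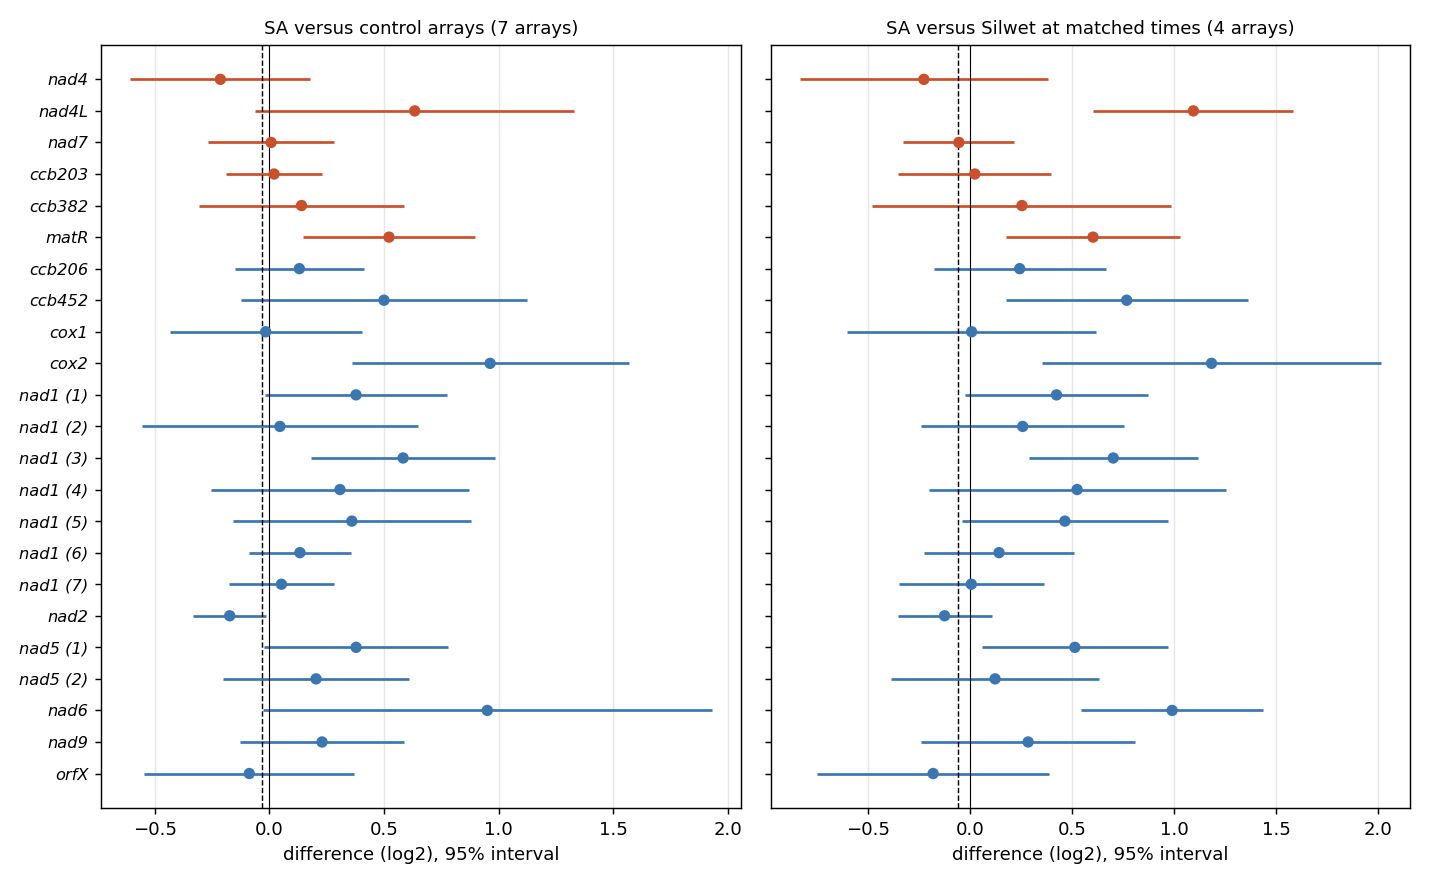
Difference in log2 units (x axis) with its 95% interval from limma for the 6 genes (red) and the 17 other mitochondrion-encoded probe sets (blue), SA against control arrays on the left and SA against Silwet at matched times on the right. The dashed line is the median of all 13513 probe sets; the interval of matR excludes 0 in both panels and that of nad4L in the right one, before any adjustment for the number of probe sets.

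The maturase gene could be set beside its host gene, which had 7 probe sets; nad1 was chosen for its position around matR after the values were seen. Over the 7 arrays matR followed 2 of them closely, 257321_at (Pearson's r = 0.96, Spearman's rho = 0.94) and 257323_at (r = 0.94, rho = 0.93). It followed 257322_at least (r = -0.12, rho = -0.21), and the other 4 had r from 0.32 to 0.63. The points share arrays and normalisation, so these values are a description. The first of these probe sets read 6.70 in untreated leaves, 6.36 (6 h) and 6.56 (12 h) with Silwet, and 7.20 (3 h), 6.74 (6 h), 7.02 (12 h) and 6.70 (24 h) with SA. The second read 4.74, then 4.56 and 4.41, and then 5.46, 5.03, 5.34 and 4.78, with each SA array above each control array.

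The probe sets of nad1 were thus not uniform. Their differences between SA and control arms ran from 0.05 (257322_at) to 0.58 (257323_at, SE 0.17, limma adjusted p = 0.124), and the matR difference of 0.52 lay near the upper end. Which exons or introns these probe sets read is not analysed here.

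**Figure D4:**
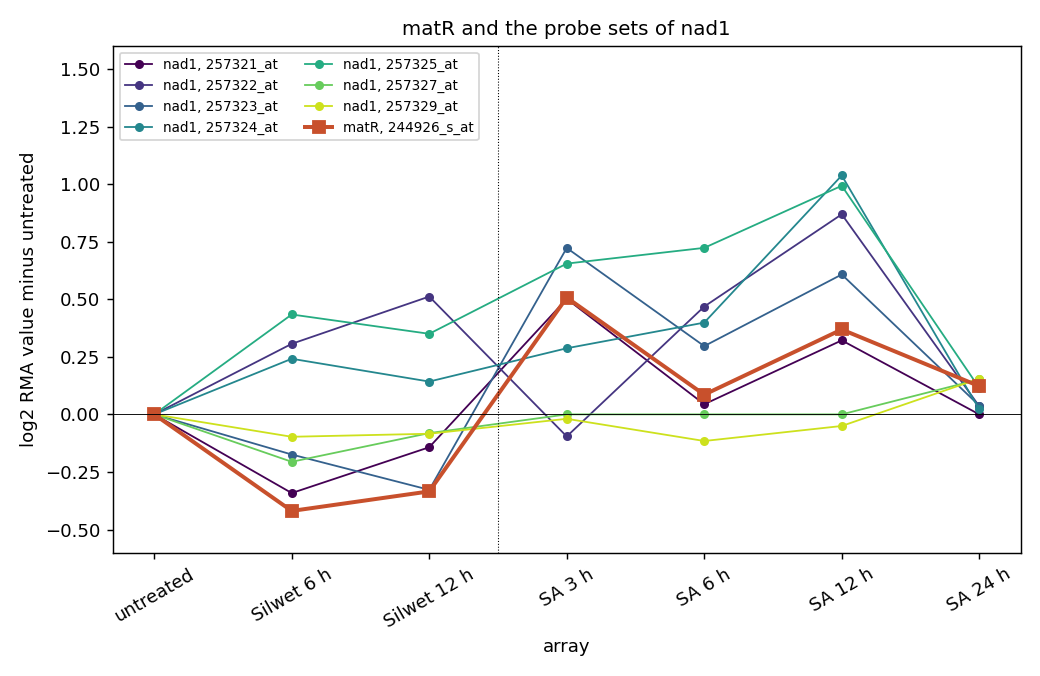
Log2 RMA value minus that of untreated leaves (y axis) for matR (red squares) and the 7 probe sets of nad1 (circles) on each array (x axis); the lines only join the points of a probe set. The probe sets 257321_at and 257323_at lie below untreated leaves in Silwet and highest at SA 3 h and 12 h, as matR does, while 257322_at, 257324_at and 257325_at lie above untreated leaves in Silwet.

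Among themselves the 6 genes varied only partly in step. The closest pair over the 7 arrays was nad4L and matR (Pearson's r = 0.78, Spearman's rho = 0.64), and nad4 ran against both (r = -0.46 with nad4L and -0.48 with matR). For the related genes ccb203 and ccb382 r was 0.39 and rho 0.18. The mean profile of the 6, each centred over arrays, ran from -0.26 in Silwet at 6 h to 0.18 in SA at both 3 h and 12 h. The genes were not scaled, so this mean leans on nad4L (SD over arrays 0.53) and matR (0.34). For the other genes the SD was from 0.05 (ccb203) to 0.17 (ccb382). The 10 probe sets most like it, of 3473 with an SD over arrays of at least 0.5, had r from 0.91 to 0.95 over 7 arrays. They were AT3G15770, AT1G50740, BZIP60, AT3G53270, AT2G41640, VPS60.1, WRKY6, AT3G49210, AT3G46930 and AT4G25390, all of them nuclear genes. Only 2 mitochondrion-encoded probe sets outside the 6 genes reached that SD, nad6 with r = 0.85 (place 60) and cox2 with r = 0.84 (place 72). The other mitochondrion-encoded probe sets were left out by the SD limit. The list therefore does not show that nuclear profiles were the most alike.

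Nuclear genes for the same functions were read from lists chosen with earlier results of these data known. Of 39 listed nuclear complex I genes 23 had a named probe set, and 0 of 23 passed in either SA comparison or had an unadjusted p under 0.05 in limma. Their differences between arms lay between -0.30 (AT3G57785) and 0.27 (FRO1, the gene for an accessory subunit of the matrix arm), with a median of 0.03. The matched differences lay between -0.32 and 0.38, so the 1.10 of nad4L lay outside the range of the nuclear subunits.

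Of 7 listed genes for cytochrome c and its maturation 5 were measured and 0 passed in limma, with 2 at an unadjusted p under 0.05 in either SA comparison. The cytochrome c genes themselves had the largest differences. CYTC-2 read 9.89 in untreated leaves, 7.69 (6 h) and 7.36 (12 h) with Silwet, and 9.98 (3 h), 9.63 (6 h), 9.39 (12 h) and 9.70 (24 h) with SA, so SA leaves stayed near the untreated level and Silwet leaves lay below it. Its matched difference was 1.99 (SE 0.21, limma adjusted p = 0.0507), and between arms, at 1.36 (adjusted p = 0.246), it passed only without the untreated array (2.15, adjusted p = 0.0323). CYTC-1 read 11.22, then 11.07 and 11.29, and then 11.66, 12.32, 12.69 and 11.86, with a matched difference of 1.33 (SE 0.16, limma adjusted p = 0.0514). Both passed at matched times in 4 of the 5 other settings run, with limma adjusted p from 0.0227 to 0.0494. The lowest for each came with centring on nuclear genes for mitochondrial proteins, a set that includes both cytochrome c genes themselves. More probe sets of any kind passed in those 4 settings than in the main fit, where 238 of 13513 did. With the centrings 859 and 2518 of 13513 passed. Over all probe sets other than controls 1045 of 22746 passed, and at or above the median level 904 of 6757.

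Of 20 listed nuclear factors for mitochondrial transcription, splicing and editing 9 were measured and 0 passed in limma (5 between arms and 3 at matched times had an unadjusted p under 0.05), with 6 of 9 higher with SA and a median of 0.29 between arms. Among them were the nuclear maturase genes AT5G46920 (nMAT2), with a difference between arms of 0.97 (SE 0.39, limma adjusted p = 0.222), and AT1G74350 (nMAT4), with 0.75 (SE 0.21, adjusted p = 0.115). AT1G74350 read 5.11 in untreated leaves, 5.34 (6 h) and 5.50 (12 h) with Silwet, and 6.30 (3 h), 6.41 (6 h), 6.01 (12 h) and 5.55 (24 h) with SA, and it passed without the SA 24 h array (0.92, adjusted p = 0.0285). Without that array 681 of all probe sets passed, against 180 with it.

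Of 19 listed genes of mitochondrial stress and alternative respiration 7 were measured, and 1 passed between arms and 2 at matched times, with medians of 0.28 and 0.44 and 6 of 7 higher in both. NDB2, an external NADH dehydrogenase of the inner membrane that bypasses complex I, rose by 3.12 between arms (SE 0.42, limma adjusted p = 0.0234) and by 3.68 at matched times (SE 0.32, adjusted p = 0.0447). It read 8.65 in untreated leaves, 7.67 (6 h) and 7.47 (12 h) with Silwet, and 11.28 (3 h), 11.81 (6 h), 10.68 (12 h) and 10.42 (24 h) with SA. The call between arms ended without Silwet 6 h, Silwet 12 h, SA 3 h, SA 6 h or SA 12 h and with clock time as a block, with adjusted p from 0.0635 to 0.106. The difference with clock time as a block, 3.04, was that without SA 3 h, since that array was alone in its block. AT2G41730 rose at matched times by 2.61 (SE 0.21, limma adjusted p = 0.0446), and its difference between arms, 2.31 (adjusted p = 0.127), did not pass. Both matched calls ended without a trend in the variance prior (adjusted p = 0.0787). AT5G51440, named after its values were seen, had the largest difference of the list between arms, 3.49 (SE 0.81, limma adjusted p = 0.0787), and 2.74 at matched times (adjusted p = 0.114). The other 4, NDB1, NDB4, AT5G09570 and AT2G21640, lay between -0.02 and 0.28 between arms.

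Of 69 chloroplast-encoded probe sets, the other organelle genome on the array, 3 were higher with SA between arms and the median was -0.23. The median was 0.08 for the 6 genes, 0.23 for the other mitochondrion-encoded probe sets and -0.03 for all probe sets, of which 42.2% were higher. The difference between these lists was not tested. Of the chloroplast probe sets 0 of 69 passed in limma, with 9 at an unadjusted p under 0.05. Against untreated leaves the chloroplast median was also below 0 with Silwet alone, at -0.38 at 6 h and -0.42 at 12 h. At matched times it was -0.11, with 19 of 69 higher, close to the median of -0.06 over all probe sets, of which 40.3% were higher.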

How the data were processed

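The authors deposited log2 expression values for 7 arrays. The submitters' processing notes name RMA and the affy package, without a version. RMA subtracts background, gives all arrays the same distribution of intensities and combines the probes of each set, so a shift shared by most transcripts would be hidden. Arrays have no read depth, and their number limits the precision. Probe sets were named from the platform annotation: 13513 of 22810 named 1 gene, 503 several and 8794 none, controls included. The gene numbers of 23 mitochondrial probe sets were no longer in RefSeq, and these were matched by symbol or synonym to the mitochondrial genome of TAIR10.1. No coordinates were used.

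Groups came from the sample titles. Differences were tested with limma 3.58.1 in R 4.3.3 (lmFit, eBayes with a trended prior, two-sided, Benjamini-Hochberg over 13513 probe sets, threshold 0.05) in a comparison of arms (7 arrays) and an additive fit of treatment and time (4 arrays). The p-values measure spread between conditions within an arm, not between plants. The scripts were tested on simulated data. Single arrays were compared at 2-fold without a p-value. The text gives all 6 genes in full, other mitochondrial genes past 2-fold, from each nuclear list the genes that passed or else the 2 largest differences between arms, and the 10 most similar profiles. The 6 genes and all lists were chosen with earlier results of these data known. Alternatives were leaving out each array, clock time as a block, other sets of probe sets, no trend in the prior, and other centrings.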

Additional observations from a re-analysis of the deposited data

Results flagged for a closer look

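The difference between SA and Silwet for ccb382 was 0.54 at 6 h and -0.02 at 12 h, of opposite sign at the 2 times with 1 array each. The difference between times was not tested. Silwet at 6 h, the lowest of the 7 arrays for this gene at 8.69, was also the array with the largest 3′ excess of GAPDH, 1.78, whose part in this was not tested.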

How the results depend on the processing

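Of 126 values for the 6 genes under other settings, 112 kept their direction and side of the threshold, 2 newly passed (nad4L at matched times, as given above, so that 1 of the 6 genes was called with either centring) and 12 turned sign, all for genes with differences near 0. Centred on nuclear genes for mitochondrial proteins, which moved the median of all probe sets between arms from -0.03 to -0.19, ccb382 was -0.0113, ccb203 -0.1309 and nad7 -0.1439 between arms, ccb203 -0.1696 at matched times and nad7 -0.0357 from 6 h to 12 h. Centred on array medians nad7 was -0.0082 from 6 h to 12 h. With clock time as a block nad7 was -0.0898 between arms, the same as without the SA 3 h array. That array was alone in its block, so these settings give the same difference for every gene and are not separate checks of it. Leaving out single arrays gave -0.0119 to 0.055 for ccb203, -0.0053 to 0.2181 for ccb382, -0.0898 to 0.0604 for nad7, 0.44 to 0.65 for matR, 0.45 to 0.88 for nad4L and -0.26 to -0.17 for nad4. The 180 calls between arms, of 13513 probe sets, became 17 to 681 without single arrays. They became 395 over all 22746 probe sets other than controls and 348 over the 6757 at or above the median level. Of the 6 genes only nad4 and ccb382 were tested at that level, and neither was called. With nuclear centring the calls numbered 341 (153 higher, 188 lower, against 139 and 41). The 238 calls at matched times became 1045, 904, 2518 (600 higher, 1918 lower, against 155 and 83) in those settings, 859 with median centring and 0 without a trend, where 3502 had an unadjusted p under 0.05. Single-array values of the 6 genes past the threshold numbered 3 of 48 at 1.5-fold and 2 with median centring, against 1. The share of all probe sets past the threshold in these settings was not computed, so these counts are no result about the 6 genes. No array could be left out of the matched fit, whose 3 coefficients would leave no residual degree of freedom. With no second array per condition, differences of the size seen here cannot be set against the spread between plants.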
